A study of Homo sapiens with 8 samples.

Results

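Binding of the leukaemia fusion proteins AML1-ETO and ETO2-GLIS2 was examined at 9 genes for factors of stem-cell and leukaemia self-renewal, namely GFI1, HHEX, BCL11A, ETV6, MEIS1, PBX3, MYB, MECOM and HLF. The genes were chosen by symbol, and their peaks were those with a summit in the hg19 gene body or within 20 kb of it. Of the 235023 peaks in the 4 peak lists, 333 met this rule, and the 9 genes stand among 20163 protein-coding genes on chromosomes 1 to 22, X and Y.

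The study put both proteins into U937, a monoblastic line that was established from a histiocytic lymphoma, under a Tet-inducible retroviral vector, and mapped its binding by ChIP-seq with anti-HA beads. AML1-ETO joins the DNA-binding Runt domain of RUNX1 to RUNX1T1, and ETO2-GLIS2 joins CBFA2T3 to the zinc-finger part of GLIS2. An HA tag was placed at the N-terminus of each. AML1-ETO came from stable single-cell clone #4 and ETO2-GLIS2 from clone #14, and all cells were kept in doxycycline (5 µg/ml) until 12 or 48 h had passed. The series has 8 libraries, 1 ChIP library with a peak list and 1 input for each fusion protein and time. Each fusion protein was thus seen in 1 clone and 1 library per time, no HA precipitation from cells without a fusion protein was among these samples, and no difference below has a replicate check or a test. Fusion protein, clone and library cannot be told apart. The lists held 70833 peaks for AML1-ETO at 12 h, 105769 for AML1-ETO at 48 h, 28325 for ETO2-GLIS2 at 12 h and 30096 for ETO2-GLIS2 at 48 h. They hold no read numbers for the peaks, and the read totals that the study gives for its libraries entered no value here. Peaks were ranked within their own list by −log10 q, with low percentages for strong peaks. A rank percentage also depends on how many weak peaks the list holds.

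Self-renewal of blood stem cells, the ability to divide and remain stem cells, is kept by a small set of transcription factors that is active early and lost as cells mature. GFI1, HHEX, BCL11A and ETV6 act mainly as repressors, MEIS1 and PBX3 are homeobox cofactors of HOX proteins, and MYB, MECOM and HLF keep progenitor or stem-cell programmes on. Many acute myeloid leukaemias hold MEIS1, PBX3, MYB or MECOM at a high level.

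At 7 of the 9 genes (GFI1, HHEX, BCL11A, ETV6, MEIS1, PBX3 and MYB) a peak lay at the start of the gene in all 4 lists. MECOM had 1 weak intronic peak with AML1-ETO and none with ETO2-GLIS2, and HLF had none in any list. The genes differed in what lay beyond the start. GFI1 and MYB carried peaks of both fusion proteins through the whole gene. MYB, BCL11A and MEIS1 had more AML1-ETO than ETO2-GLIS2 peaks at both times. At 12 h the counts were 19 and 10 at both MYB and BCL11A. ETV6 carried a row of intronic AML1-ETO peaks, and PBX3 had almost none. AML1-ETO had 89 peaks at the 9 genes at 12 h and 129 at 48 h, and ETO2-GLIS2 had 56 at 12 h and 59 at 48 h. These numbers follow the length of the lists. Among the strongest 28325 peaks of each list AML1-ETO had 47 and 38 and ETO2-GLIS2 had 56 and 54. By number AML1-ETO then had fewer member peaks than ETO2-GLIS2 and fewer at 48 h than at 12 h. A wide peak counts once, and at the GFI1 start 3 AML1-ETO peaks at 12 h stood against 1 at 48 h. Over the full lists the member peaks covered 94.1 and 150 kb with AML1-ETO and 44.2 and 44.5 kb with ETO2-GLIS2. The length covered at equal list length was not computed.

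**Figure D1:**
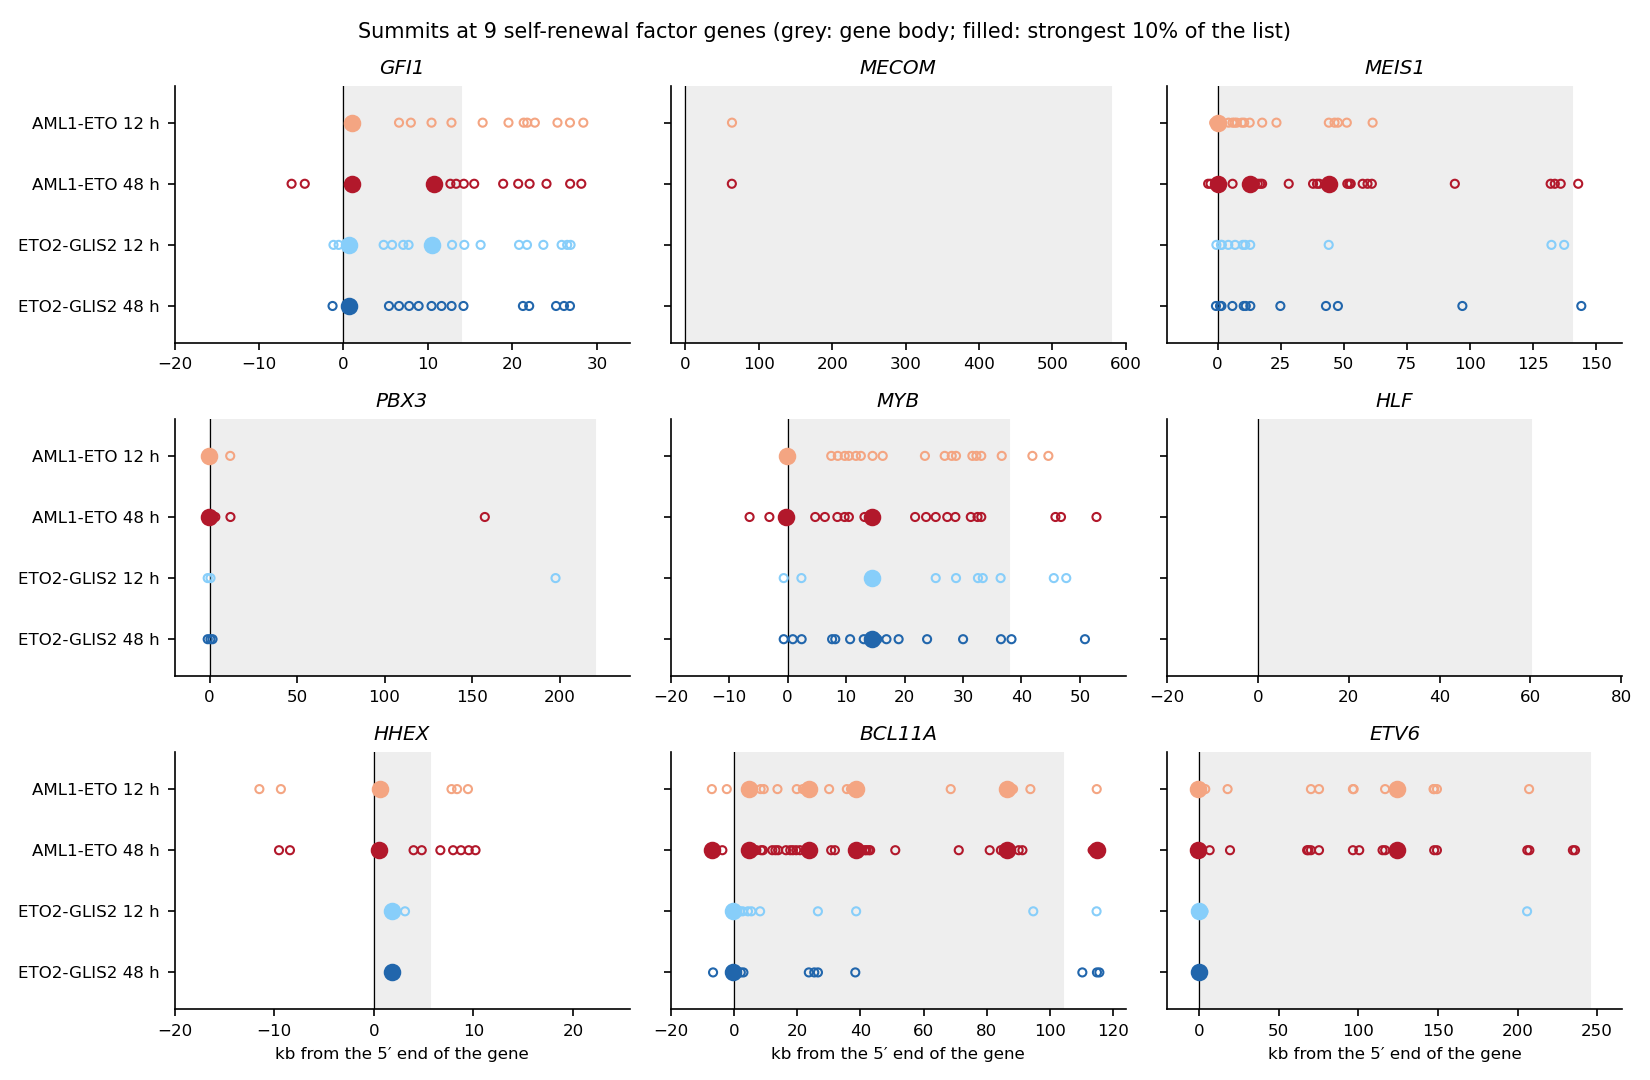
Each panel plots the summits at 1 gene against the distance in kb from its 5′ end in the direction of transcription, with a lane for each of the 4 lists, the gene body in grey and filled points for peaks in the strongest 10% of their list. Filled points cluster at the start of 7 genes, BCL11A has up to 6 of them in the AML1-ETO lane at 48 h, and the HLF panel is empty.

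Set against the whole gene annotation, the presence of a peak at these genes was near the background. Promoter peaks at any annotated start site were more frequent, above all those in the strongest 10% of their list. Neither was tested, since 9 genes chosen by name are no sample. At least 1 peak was present at 8 of the 9 genes with AML1-ETO at 12 h (77.6% of protein-coding genes) and at 8 at 48 h (80.3%). The same was so for 7 with ETO2-GLIS2 at 12 h (66.4%) and 7 at 48 h (66.0%). A promoter summit, within 1 kb of an annotated start site of the gene, was present at 7 genes in every list. Among all protein-coding genes 54.0% had one with AML1-ETO at 12 h, 59.8% with AML1-ETO at 48 h, 42.8% with ETO2-GLIS2 at 12 h and 45.7% with ETO2-GLIS2 at 48 h. The members have 3 (HHEX) to 26 (BCL11A) annotated start sites. With the 5′ end of the gene as the only start site, 5 members had a promoter summit with AML1-ETO and 6 with ETO2-GLIS2 at each time. GFI1 and BCL11A then dropped out with AML1-ETO, and HHEX with ETO2-GLIS2. For that stricter rule no share of all genes was computed. A promoter summit in the strongest 10% of the list was found at 7 genes with AML1-ETO at 12 h, against 17.5% of protein-coding genes, and at 7 at 48 h, against 29.5%. With ETO2-GLIS2 it was found at 5 genes at 12 h, against 6.95%, and at 5 at 48 h, against 8.71%. The 5 were GFI1, MYB, HHEX, BCL11A and ETV6, while MEIS1 and PBX3 had only weaker promoter summits with ETO2-GLIS2. MYB counted only through a site at +14.48 kb, and near its 5′ end ETO2-GLIS2 ranked at 33.3% and 21.3%. HHEX likewise counted through a start site other than its 5′ end, with summits at +1.83 and +1.84 kb. The summit density over the 9 genes and their flanks, 1768 kb in all, was 5.03 and 7.30 per 100 kb with AML1-ETO at 12 and 48 h and 3.17 and 3.34 with ETO2-GLIS2. Over the known sequence of the genome it was 2.48, 3.70, 0.991 and 1.05 in the same order.

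**Figure D2:**
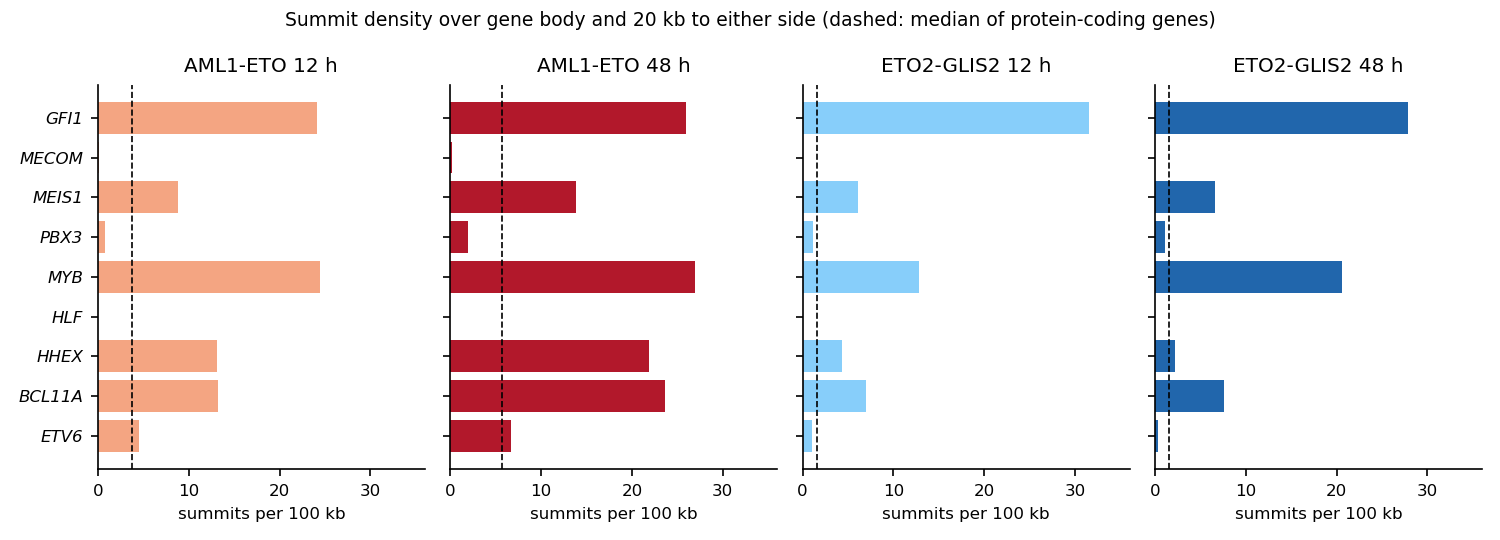
The bars give the number of summits per 100 kb of gene body and flanks for each of the 9 genes, in 1 panel per list, and the dashed line is the median of all protein-coding genes. GFI1 and MYB stand above the line in all 4 panels, from 12.8 to 31.5 summits per 100 kb, while MECOM and PBX3 lie below it and HLF is at 0.

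GFI1 encodes a zinc-finger repressor that restrains stem-cell proliferation and is needed for granulocyte formation. The gene, on the minus strand at chr1:92938600-92952482, had 13 and 14 AML1-ETO peaks at 12 and 48 h, against 17 and 15 with ETO2-GLIS2. It was the only member with more ETO2-GLIS2 than AML1-ETO peaks at both times. By length covered the order was the reverse, with 16.6 and 24.9 kb for AML1-ETO against 12.7 and 10.6 kb for ETO2-GLIS2. The AML1-ETO start peak at 48 h alone overlapped 6 ETO2-GLIS2 peaks. The peak at its start was the strongest member peak of both AML1-ETO lists. Its summit lay at +1.01 kb from the 5′ end at 12 h, with a width of 5946 bp and a rank of 1.23%. At 48 h it lay at +1.02 kb, was 11953 bp wide and enriched 53.2-fold over the local background, and ranked at 0.689%. That peak covered most of a gene of 13.9 kb. ETO2-GLIS2 had a narrower start peak, with its summit at +0.68 kb at 12 h (8.51%, 3998 bp) and +0.70 kb at 48 h (9.60%, 4595 bp). Both fusion proteins had another strong site near the last exons of the gene. With ETO2-GLIS2 its summit lay in intron 6 at +10.44 kb and ranked at 9.48% at 12 h, and lay at +10.43 kb with 12.9% at 48 h. The AML1-ETO summit at 12 h lay at +10.43 kb, 18 bp from that of ETO2-GLIS2, and ranked at 20.2%. At 48 h it lay at +10.76 kb, in exon 7, 329 bp from that of ETO2-GLIS2, and ranked at 7.28%. The peak of 2427 bp lay partly over that exon of 3165 bp. A row of peaks continued past the end of the gene to +28.4 kb. At GFI1, 6 regions, after overlapping peaks of the lists had been merged, were held by all 4 lists, the highest number of the 9 genes.

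The summit windows of the site near the last exons are shown because both fusion proteins had a peak here, with summits that lay apart at 48 h but not at 12 h. Each is 200 bases of GRCh37 centred on the summit, on the strand of the gene (minus). Throughout, capitals mark matches to Runt (TGTGGT or TGCGGT), the E-box CAGCTG or AP-1 (TGACTCA or TGAGTCA), searched on both strands. The windows are chr1:92941622-92941821 for AML1-ETO at 48 h and chr1:92941951-92942150 for ETO2-GLIS2 at 48 h. The former holds no match, and the latter holds CAGCTG at −14 bp from the summit. The window at the start of the gene overlaps an untranslated region and is not shown.
GFI1 AML1-ETO 48 h: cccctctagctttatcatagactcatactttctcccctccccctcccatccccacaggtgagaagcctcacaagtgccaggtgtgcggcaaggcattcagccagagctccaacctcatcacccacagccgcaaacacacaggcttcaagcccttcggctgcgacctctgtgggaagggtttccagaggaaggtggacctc
GFI1 ETO2-GLIS2 48 h: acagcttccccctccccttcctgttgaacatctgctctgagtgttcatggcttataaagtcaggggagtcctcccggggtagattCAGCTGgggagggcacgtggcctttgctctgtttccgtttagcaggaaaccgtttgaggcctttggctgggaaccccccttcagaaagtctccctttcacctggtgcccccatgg

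HHEX encodes a homeobox repressor of blood and endothelial progenitors. The gene is short, 5.69 kb at chr10:94449712-94455404, and its start peak spanned most of it. HHEX carried the strongest member peak of both ETO2-GLIS2 lists. Its summit lay at +1.83 kb with a rank of 1.40% and 35.3-fold enrichment at 12 h, and at +1.84 kb with 1.15% and 81.0-fold at 48 h. The AML1-ETO summit lay nearer to the 5′ end, at +0.60 kb with a rank of 2.09% at 12 h and +0.55 kb with 1.74% at 48 h. The widths at 48 h were close, 4710 bp for AML1-ETO and 4761 bp for ETO2-GLIS2, so the peaks of both fusion proteins covered much the same stretch while their summits were 1290 bp apart. The corresponding distance at 12 h was 1236 bp. Between the times the summits moved by 47 bp for AML1-ETO and 7 bp for ETO2-GLIS2. Apart from the start peak, AML1-ETO had 5 weaker peaks at 12 h and 9 at 48 h, none of which overlapped ETO2-GLIS2, and ETO2-GLIS2 had a single weak one at 12 h.

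The AML1-ETO summit window of HHEX, chr10:94450162-94450361 on the plus strand, lies in intron 1 and is shown because all 3 motifs fall near its summit. CAGCTG starts at −37 bp, the reverse complement of a Runt match, ACCGCA, at +9 bp and the AP-1 match TGACTCA at +18 bp. The ETO2-GLIS2 window overlaps an untranslated region and is not shown.
HHEX AML1-ETO 48 h: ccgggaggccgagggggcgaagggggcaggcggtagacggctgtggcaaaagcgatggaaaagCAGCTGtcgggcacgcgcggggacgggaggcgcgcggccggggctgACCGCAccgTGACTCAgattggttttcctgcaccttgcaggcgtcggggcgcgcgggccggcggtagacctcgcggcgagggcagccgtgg

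BCL11A encodes a zinc-finger repressor known for silencing fetal globin and for B-cell development. The gene lies on the minus strand at chr2:60677655-60781602. It had 19 and 34 AML1-ETO peaks at 12 and 48 h, the latter the highest number of any member, and with ETO2-GLIS2 it had 10 and 11. The strongest peaks of the fusion proteins had their summits at different places within the same stretch at its start. AML1-ETO had its summit in intron 1, at +4.84 kb with a rank of 6.60% and a width of 7762 bp at 12 h, and at +4.85 kb with 2.89% and 8897 bp at 48 h. ETO2-GLIS2 had its summit before the gene, at −0.30 kb with 7.54% at 12 h and −0.29 kb with 5.22% at 48 h. The AML1-ETO peak reached over both positions, and these summits were 5137 bp apart at 12 h and 5134 bp at 48 h. Weaker ETO2-GLIS2 peaks lay nearer. At 12 h the AML1-ETO peak overlapped 5 ETO2-GLIS2 peaks, and the nearest of their summits was 427 bp from its own.

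Further into BCL11A, AML1-ETO had several strong intronic sites where ETO2-GLIS2 was weaker or had no peak. In intron 2 an AML1-ETO peak at +23.66 kb, 6634 bp wide at 12 h and 6895 bp at 48 h, ranked at 5.38% and 3.69%. ETO2-GLIS2 peaks under it were strongest 2.9 kb away, at +26.53 kb with 19.2% at 12 h and +26.54 kb with 19.7% at 48 h. A weaker ETO2-GLIS2 peak at 48 h, at 70.8%, had its summit 3 bp from that of AML1-ETO. A site near +38.6 kb ranked at 5.52% and 6.95% with AML1-ETO and at only 61.4% and 68.3% with ETO2-GLIS2. In intron 3 an AML1-ETO site at +86.45 kb ranked at 9.03% and 7.10% and overlapped no ETO2-GLIS2 peak. Upstream, an AML1-ETO site at −7.01 kb ranked at 25.5% at 12 h and 9.22% at 48 h. Downstream of the gene, a site near +114.8 kb was held by all 4 lists, at 16.7% and 8.66% with AML1-ETO and 46.1% and 23.1% with ETO2-GLIS2. Between +51.0 and +68.5 kb no list had a summit.

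The BCL11A windows show the strongest summit of each fusion protein at the start and the strong intronic AML1-ETO site. They are, on the minus strand, chr2:60776654-60776853 (AML1-ETO at 48 h, intron 1), chr2:60781788-60781987 (ETO2-GLIS2 at 48 h, before the gene) and chr2:60757844-60758043 (AML1-ETO at 48 h, intron 2). The windows at the start hold none of the 3 motifs, and the window in intron 2 holds the Runt match TGTGGT at +11 bp.
BCL11A AML1-ETO 48 h, intron 1: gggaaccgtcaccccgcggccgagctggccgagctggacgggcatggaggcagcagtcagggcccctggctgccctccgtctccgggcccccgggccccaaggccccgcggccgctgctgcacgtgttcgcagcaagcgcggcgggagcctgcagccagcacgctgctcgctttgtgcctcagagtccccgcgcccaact
BCL11A ETO2-GLIS2 48 h, before the gene: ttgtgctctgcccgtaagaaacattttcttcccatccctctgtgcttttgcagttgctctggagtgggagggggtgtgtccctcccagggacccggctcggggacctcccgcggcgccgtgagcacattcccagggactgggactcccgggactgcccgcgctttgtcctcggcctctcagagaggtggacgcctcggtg
BCL11A AML1-ETO 48 h, intron 2: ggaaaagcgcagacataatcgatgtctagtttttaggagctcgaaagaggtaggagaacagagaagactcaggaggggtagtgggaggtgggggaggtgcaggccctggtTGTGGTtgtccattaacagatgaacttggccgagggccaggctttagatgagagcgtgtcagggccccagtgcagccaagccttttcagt

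ETV6 encodes an ETS-family repressor needed for blood stem cells in the bone marrow. Of the members it had the largest contrast between a start bound in all lists and introns bound in the AML1-ETO lists. The gene spans chr12:11802608-12048311. At its start the AML1-ETO summit lay at −0.71 kb with a rank of 2.56% at 12 h and at −0.70 kb with 1.34% at 48 h. The ETO2-GLIS2 summit lay at −0.19 kb at both times, with 2.96% and 47.1-fold enrichment at 12 h and 2.46% and 56.0-fold at 48 h, and did not move by a single base pair. Beyond the start, AML1-ETO had 12 peaks at 12 h and 18 at 48 h. The strongest lay in intron 2 at +124.36 kb with 8.40% at 12 h and +124.34 kb with 9.50% at 48 h, and overlapped no ETO2-GLIS2 peak. Other intronic AML1-ETO sites recurred at both times. Those that ranked higher at 48 h lay near +70.3 kb (32.4% and 17.9%), +75.4 kb (50.9% and 23.2%), +116.9 kb (22.3% and 14.1%), +147.7 kb (22.3% and 17.9%) and +149.4 kb (15.2% and 13.0%). Those that ranked lower at 48 h lay near +96.7 kb (23.4% and 30.8%) and +207.3 kb (17.8% and 28.2%). ETO2-GLIS2 had 2 further peaks at 12 h, at 74.1% and 98.2%, and none at 48 h.

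The ETV6 windows set the start beside the strongest intronic AML1-ETO site. Both are AML1-ETO summits at 48 h on the plus strand, chr12:11801812-11802011 before the gene and chr12:11926844-11927043 in intron 2. The former holds CAGCTG at −96 bp and 6 copies of GGAA, the core of ETS sites, on either strand. The latter holds ACCACA, the reverse complement of a Runt match, at +76 bp.
ETV6 AML1-ETO 48 h, before the gene: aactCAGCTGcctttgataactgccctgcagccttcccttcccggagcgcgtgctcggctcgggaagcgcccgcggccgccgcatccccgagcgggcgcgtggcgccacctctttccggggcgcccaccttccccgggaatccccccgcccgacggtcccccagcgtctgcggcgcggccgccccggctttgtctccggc
ETV6 AML1-ETO 48 h, intron 2: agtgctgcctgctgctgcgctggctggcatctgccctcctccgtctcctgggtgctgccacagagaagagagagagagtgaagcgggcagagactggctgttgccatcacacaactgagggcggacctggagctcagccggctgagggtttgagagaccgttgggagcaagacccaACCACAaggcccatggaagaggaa

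MEIS1 encodes a TALE homeobox cofactor of HOX proteins. The gene, at chr2:66660584-66801001, had 16 and 25 AML1-ETO peaks at 12 and 48 h, against 11 and 12 with ETO2-GLIS2. At its start AML1-ETO ranked higher than ETO2-GLIS2 by percentage of the own list. The AML1-ETO summit lay at +0.16 kb, with 9.45% at 12 h and 2.75% at 48 h. The ETO2-GLIS2 summit lay at −0.44 kb with 32.5% at 12 h and at −0.61 kb with 33.9% at 48 h. The strongest ETO2-GLIS2 site of MEIS1 lay instead in intron 6, at +12.97 kb with 10.9% at 12 h and +13.01 kb with 11.4% at 48 h. AML1-ETO was present there with 11.8% at 12 h and 6.29% at 48 h. A site near +44.1 kb in intron 7 widened with AML1-ETO from 2695 bp at 12 h to 6219 bp at 48 h and ranked at 17.1% and 6.08%. The strongest ETO2-GLIS2 peaks that overlapped it ranked at 54.1% at 12 h and 87.0% at 48 h. Past +60 kb the gene held few peaks, all of them ranked below the strongest 10% of their list, and between +97.1 and +132.1 kb no list had a summit.

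The MEIS1 windows show the preferred site of each fusion protein, both on the plus strand. They are chr2:66660642-66660841 for AML1-ETO at 48 h at the start and chr2:66673492-66673691 for ETO2-GLIS2 at 48 h in intron 6. The former holds the Runt match ACCGCA at −22 bp and CAGCTG at +6 bp, and the latter holds none of the 3 motifs.
MEIS1 AML1-ETO 48 h: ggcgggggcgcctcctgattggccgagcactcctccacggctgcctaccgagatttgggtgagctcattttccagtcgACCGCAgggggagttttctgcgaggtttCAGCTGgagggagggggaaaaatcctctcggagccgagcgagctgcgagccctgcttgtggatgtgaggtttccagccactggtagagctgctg
MEIS1 ETO2-GLIS2 48 h: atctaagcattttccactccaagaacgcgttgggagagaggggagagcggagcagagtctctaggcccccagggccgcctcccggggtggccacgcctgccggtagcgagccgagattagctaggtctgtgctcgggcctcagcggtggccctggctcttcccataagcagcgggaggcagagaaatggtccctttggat

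PBX3, another TALE homeobox gene whose product pairs with MEIS1 and HOX proteins, is a long gene (chr9:128509624-128729656) but had only 2 and 5 AML1-ETO peaks at 12 and 48 h and 3 ETO2-GLIS2 peaks at each time. The start peak of AML1-ETO had its summit at −0.41 kb with 4.65% at 12 h and −0.53 kb with 3.49% at 48 h. The strongest ETO2-GLIS2 peak lay at −1.04 kb at both times, with 32.5% and 24.1%, just outside the 1 kb that defines the promoter here. Its promoter summits ranked lower, at 59.6% at 12 h and 49.9% at 48 h. From +12.0 to +157.3 kb no list had a summit. The AML1-ETO window at the start, chr9:128508991-128509190 on the plus strand, is shown for its base composition. It is 81.0% G or C, the highest of the windows shown, and holds none of the 3 motifs.
PBX3 AML1-ETO 48 h: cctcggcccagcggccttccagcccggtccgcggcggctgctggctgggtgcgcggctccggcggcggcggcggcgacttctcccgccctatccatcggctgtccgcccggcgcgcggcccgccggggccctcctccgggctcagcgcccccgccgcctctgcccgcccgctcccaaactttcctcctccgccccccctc

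MYB encodes an activator needed for progenitor self-renewal and for the upkeep of many acute leukaemias. The gene, at chr6:135502446-135540311, had 19 and 21 AML1-ETO peaks at 12 and 48 h, against 10 and 16 with ETO2-GLIS2. Its strongest peak differed between the fusion proteins. AML1-ETO was strongest at the start, with its summit at −0.12 kb and 2.74% at 12 h and −0.32 kb and 1.55% at 48 h. ETO2-GLIS2 ranked there at 33.3% at 12 h and 21.3% at 48 h, with its summit at −0.68 kb at both times. ETO2-GLIS2 was strongest at +14.48 kb, with 4.10% and 36.2-fold enrichment at 12 h and 5.46% and 33.5-fold at 48 h. AML1-ETO ranked at this site at 10.1% at 12 h and 8.32% at 48 h, and at 48 h the summits of both fusion proteins fell on the same base. The summit lies in exon 9, and the peaks of 965 to 2521 bp ran past this exon of 255 bp. It also lies within 1 kb of the start site of a shorter annotated transcript and so counts as a promoter summit. A site near +28.7 kb ranked at 13.6% and 13.1% with AML1-ETO and at 56.5% with ETO2-GLIS2 at 12 h. The sequence at +14.48 kb overlaps an untranslated region of a transcript and is not shown. The AML1-ETO window before the gene, chr6:135502025-135502224 on the plus strand, is shown as the strongest MYB site of that protein and holds none of the 3 motifs.
MYB AML1-ETO 48 h: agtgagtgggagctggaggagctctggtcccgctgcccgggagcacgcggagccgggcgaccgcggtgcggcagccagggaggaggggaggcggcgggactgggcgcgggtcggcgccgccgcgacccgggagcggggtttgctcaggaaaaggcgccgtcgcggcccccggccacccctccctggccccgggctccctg

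MECOM encodes EVI1 and longer PR-domain forms of a zinc-finger protein of stem cells, and HLF encodes a PAR bZIP factor of stem cells. MECOM is the longest of the 9 genes, 580 kb at chr3:168801287-169381563 on the minus strand. It had 1 AML1-ETO peak in intron 1 at each time, at +63.4 kb with a width of 187 bp and 92.7% at 12 h and at +63.2 kb with 352 bp and 53.7% at 48 h. No list had a promoter summit at MECOM. No list had a summit in the 537 kb from this site to the far end of the region searched. HLF, at chr17:53342321-53402548, had no summit in any list within the 100 kb searched. The MECOM window, chr3:169318260-169318459 on the minus strand, is shown as the single site of this gene and holds the Runt match TGCGGT at −77 bp. It is 42.0% G or C, against 54.0% or more in the windows of the other genes.
MECOM AML1-ETO 48 h: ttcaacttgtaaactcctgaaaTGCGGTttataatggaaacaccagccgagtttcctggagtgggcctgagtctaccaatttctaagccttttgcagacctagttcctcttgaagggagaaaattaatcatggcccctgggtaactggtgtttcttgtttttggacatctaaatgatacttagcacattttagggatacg

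At the start of the 7 bound genes the strongest summits of a fusion protein stayed in place between the times, while those of AML1-ETO and ETO2-GLIS2 lay apart. For each gene the strongest peak with its summit within 5 kb of the 5′ end was taken in each list. The AML1-ETO summits at 12 and 48 h were 2 bp (MEIS1) to 206 bp (MYB) apart, with a median of 17.0 bp. The ETO2-GLIS2 summits were 0 to 172 bp (MEIS1) apart, with a median of 7.0 bp. Between the fusion proteins the distance at 48 h was 327 bp (GFI1) to 5134 bp (BCL11A), with a median of 506 bp, and at 12 h the median was 593 bp. Over the 7627 protein-coding genes with such a peak in all 4 lists, the medians were 54.0 bp for AML1-ETO, 45.0 bp for ETO2-GLIS2, 239 bp between the fusion proteins at 12 h and 202 bp at 48 h. Both distances between fusion proteins exceeded both distances between times at 7 of 7 members, as at 35.5% of those genes. This measure was chosen after the summits had been seen and was not tested.

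**Figure D3:**
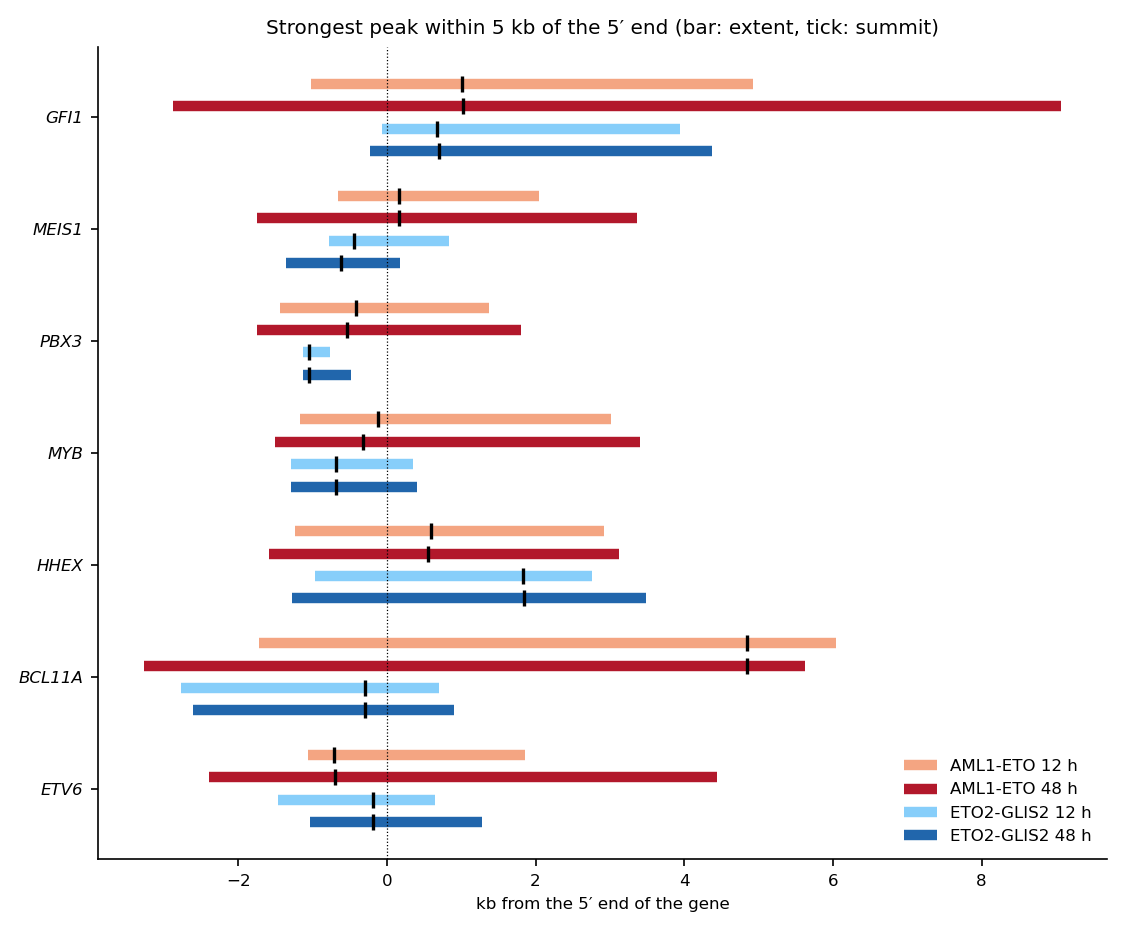
For 7 genes, bars show the extent of the strongest peak within 5 kb of the 5′ end in each list in kb from the 5′ end, and black ticks show the summits. The ticks of the 2 times of a fusion protein nearly coincide, and at BCL11A the AML1-ETO ticks lie near +4.8 kb and the ETO2-GLIS2 ticks near −0.3 kb.

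The start peaks of AML1-ETO were wider at 48 h than at 12 h at 7 of 7 members, but so were those of 95.2% of protein-coding genes. They rose in rank at 7 of 7 (90.8% of genes). The start peaks of ETO2-GLIS2 were wider at 48 h at 6 of 7 (65.9%) and rose in rank at 5 of 7 (70.2%), the exceptions in rank being GFI1 and MEIS1. At 48 h the AML1-ETO start peak was the wider at 6 of 7 (94.0%) and ranked higher in its own list at 6 of 7 (85.9%). In both cases the exception was HHEX. These counts lie near the background and describe the lists rather than the members. A rank percentage is not a place in the list, since the AML1-ETO list was the longer. By fold enrichment at 48 h ETO2-GLIS2 was higher at HHEX (81.0 against 32.6), BCL11A (35.3 against 30.1) and ETV6 (56.0 against 42.4). AML1-ETO was higher at GFI1, MEIS1, PBX3 and MYB. These fold values come from single libraries and were not corrected for depth. By the study's totals the ETO2-GLIS2 ChIP library at 48 h had fewer reads and a lower mapping rate than the AML1-ETO one. By rank the ETO2-GLIS2 start peaks fell into separate ranges. At GFI1, HHEX, BCL11A and ETV6 they lay between 1.15% and 9.60%, and at MEIS1, PBX3 and MYB between 21.3% and 33.9%. These ranges were set after the values had been seen, and the share of protein-coding genes in each was not computed. MYB had a stronger ETO2-GLIS2 site further into the gene, at 4.10% and 5.46%.

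**Figure D4:**
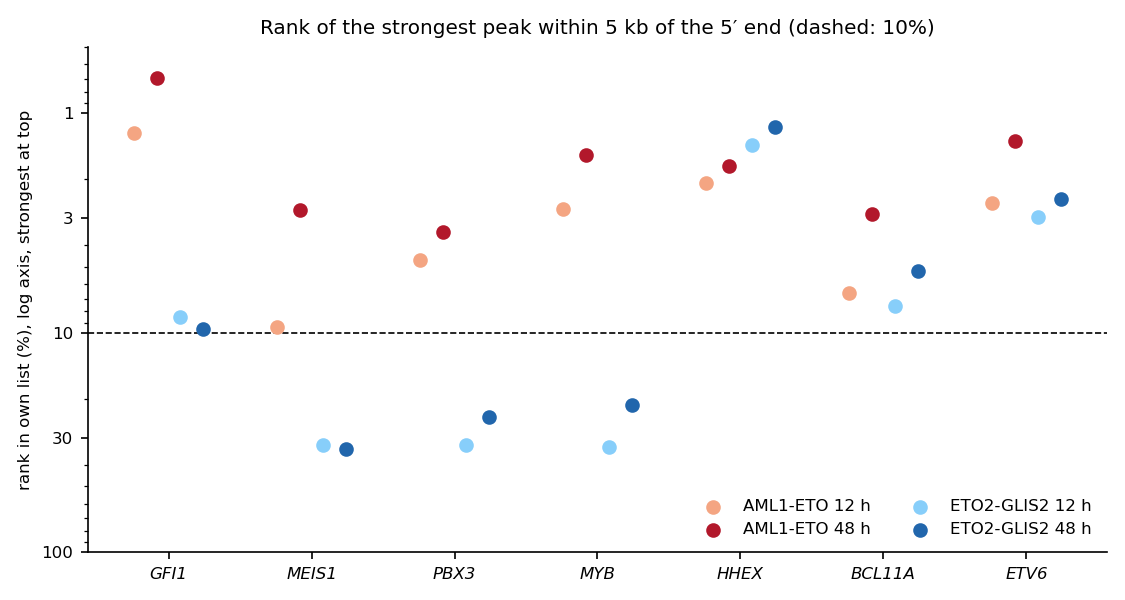
Points give the rank in percent of the own list, on a log axis with the strongest at the top, of the strongest peak within 5 kb of the 5′ end of 7 genes in the 4 lists, and the dashed line marks 10%. All AML1-ETO points lie above the line, and the ETO2-GLIS2 points of MEIS1, PBX3 and MYB lie below it.

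Overlap of at least 1 bp between the fusion proteins at the 9 genes was near that of the whole lists, but close summits were less frequent with ETO2-GLIS2. With AML1-ETO, 31 of 89 peaks overlapped an ETO2-GLIS2 peak of the same time at 12 h, which is 34.8% (exact 95% Clopper-Pearson interval 25.0 to 45.7%, counting error only) against 26.2% of the list. At 48 h it was 27 of 129, 20.9% (14.3 to 29.0%) against 17.8%. With ETO2-GLIS2, 42 of 56 peaks overlapped AML1-ETO at 12 h, 75.0% (61.6 to 85.6%) against 74.5%, and 50 of 59 at 48 h, 84.7% (73.0 to 92.8%) against 83.4%. Each interval held the value of its list, but the intervals take peaks as independent and are no test. Of the 50 shared ETO2-GLIS2 peaks at 48 h, 15 lay at GFI1. When summits had to lie within 200 bp, ETO2-GLIS2 shared 23.2% of member peaks at 12 h and 16.9% at 48 h, against 41.6% and 39.0% of its lists. AML1-ETO then shared 14.6% and 7.75%, against 16.6% and 11.1%. The overlap went with strength. Of the AML1-ETO peaks at the 9 genes in the strongest 10% of the list at 48 h, 15 of 17 were shared, against 3 of 59 in the weaker 50%. The corresponding shares in the whole list were 84.1% and 2.94%. The peaks in the strongest 10% that were not shared were the BCL11A site in intron 3 and the ETV6 site in intron 2, both at 12 and 48 h.

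By an overlap of at least 1 bp, recovery between the times was likewise near that of the lists. Of the 89 AML1-ETO peaks at 12 h, 73 overlapped one at 48 h, 82.0% (72.5 to 89.4%) against 73.9% of the list. In the other direction 55 of 129 did so, 42.6% (34.0 to 51.6%) against 36.8%. For ETO2-GLIS2 it was 31 of 56 at 12 h, 55.4% (41.5 to 68.7%) against 60.6%, and 33 of 59 at 48 h, 55.9% (42.4 to 68.8%) against 54.6%. When at least 50% of the peak had to be covered, the ETO2-GLIS2 share at 12 h was 35.7%, against 51.8% of the list, and that at 48 h was 39.0%, against 42.7%. When overlapping peaks were merged over the lists, the 9 genes held 152 regions. All 4 lists shared 20 of them, 6 at GFI1, 4 each at BCL11A and MEIS1, 3 at MYB and 1 each at HHEX, ETV6 and PBX3. A further 69 were found with AML1-ETO at 48 h alone, 21 with AML1-ETO at both times and no ETO2-GLIS2, and 15 with AML1-ETO at 12 h alone. ETO2-GLIS2 alone held 6 regions at 12 h and 8 at 48 h, none of them at both times. Merged regions were not counted over the whole lists, so these numbers have no background beside them.

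The peaks at the 9 genes ranged from 159 to 11953 bp in width, and the wide ones were the strong and shared ones. With AML1-ETO at 48 h the median width was 2860 bp for shared and 379 bp for unshared peaks, where the whole list had 1968 and 352 bp. With ETO2-GLIS2 at 48 h it was 425 and 248 bp, against 470 and 250 bp. The median rank of the member peaks was 35.4% and 47.0% with AML1-ETO at 12 and 48 h and 60.5% and 59.8% with ETO2-GLIS2. Most member peaks of ETO2-GLIS2 thus ranked in the weaker part of its list, although the same genes held some of its strongest promoter peaks. By location, 74 of the 129 AML1-ETO peaks at 48 h had intronic summits and 19 promoter summits, and of the 59 ETO2-GLIS2 peaks 21 were intronic and 20 at promoters. The shares by location over the whole lists were not computed, so these counts cannot be called particular to the 9 genes. For 114 of the 129 and 49 of the 59 the nearest start site of any annotated gene was that of the member itself.

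**Figure D5:**
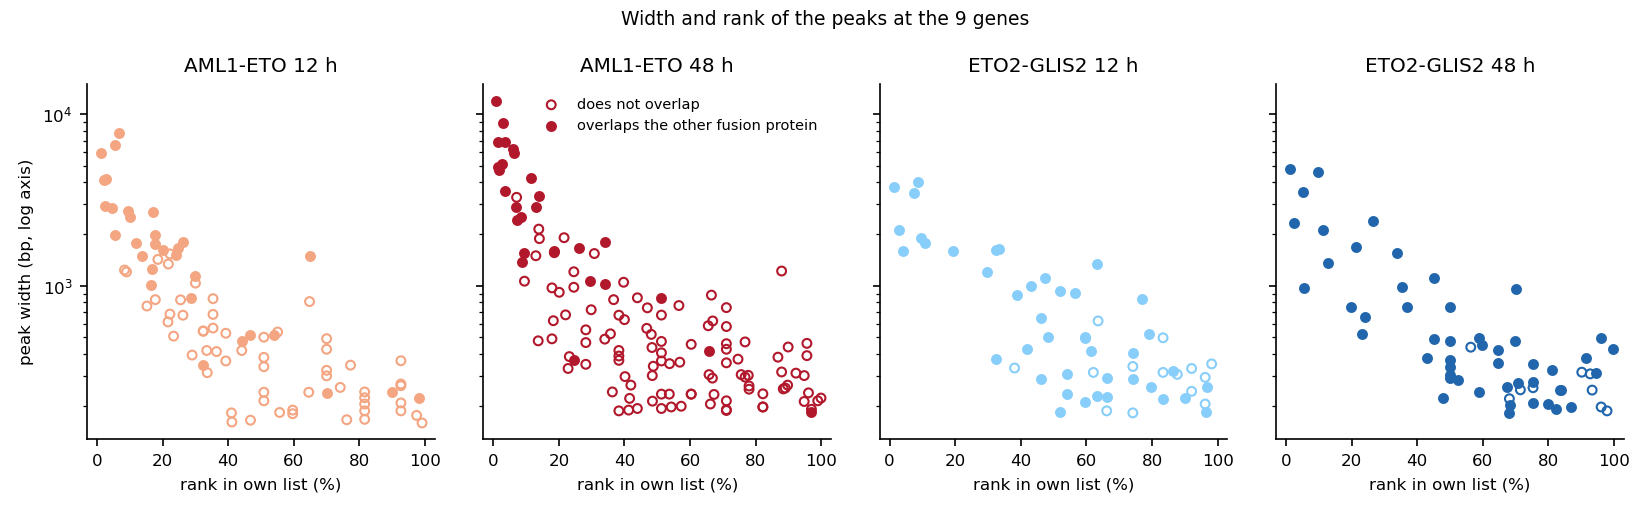
Each point is a peak at the 9 genes, with its rank in percent of the own list on the x axis and its width in bp on a log y axis, in 1 panel per list, and filled points overlap a peak of the other fusion protein at the same time. Width falls with rank in all panels, filled points lie at the strong and wide end for AML1-ETO, and for ETO2-GLIS2 they extend over the whole range.

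Most shares of motif matches in the 200 bp around the summits at the 9 genes were near those over all summits of the same list. The largest shortfall was that of Runt with ETO2-GLIS2 at 12 h. A Runt match, in either orientation, was found at 22.5% of member summits with AML1-ETO at 12 h, against 26.7% of the list, and at 24.8% at 48 h, against 24.9%. With ETO2-GLIS2 it was found at 5 of 56 at 12 h, 8.93% (2.96 to 19.6%) against 23.2%, and at 16.9% at 48 h, against 21.9%. For Runt, the interval did not hold the value of the list in this single case, but it takes summits as independent and is no test. CAGCTG was found at 10.1%, 15.5%, 10.7% and 10.2% of member summits in the order AML1-ETO at 12 and 48 h and ETO2-GLIS2 at 12 and 48 h, against 14.0%, 13.7%, 16.3% and 16.8%. The GLIS sequence TGGGGGG was found at 3.37%, 5.43%, 7.14% and 8.47%, against 4.23%, 3.83%, 7.72% and 7.89%. AP-1 was found at 5.62%, 3.88%, 0% and 3.39%, against 4.54%, 4.74%, 5.80% and 4.84%. The C/EBP sequence TTGCNNAA was found at 13.5%, 14.0%, 12.5% and 8.47%, against 10.0%, 9.52%, 10.7% and 8.60%. GGAA was found at 91.0%, 86.8%, 83.9% and 83.1%, against 83.5%, 82.9%, 87.0% and 85.7%. The longer ETS sequence CCGGAAGT, which contains GGAA, was found at 1 member summit in all, with ETO2-GLIS2 at 12 h. Such matches are to fixed letters and do not show which protein was bound.

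The closest relatives of the 9 genes served as a comparison within the gene families. They were GFI1B, PRDM16, MEIS2, MEIS3, PKNOX1, PKNOX2, PBX2, PBX4, MYBL1, MYBL2, TEF, DBP, NFIL3, BCL11B and ETV7. Of these 15 relatives 7 had a promoter summit with AML1-ETO at 12 h, 12 at 48 h, and 8 with ETO2-GLIS2 at each time. A promoter summit in the strongest 10% of the list was found at 2 relatives with AML1-ETO at 12 h and 3 at 48 h, against 7 of the 9 members at each time. With ETO2-GLIS2 it was found at 0 relatives at 12 h and 1, PBX2, at 48 h, against 5 members. The AML1-ETO relatives were PKNOX1 and NFIL3 at both times and DBP at 48 h. The median density with AML1-ETO was 5.56 and 9.72 per 100 kb at the relatives, against 8.87 and 13.9 at the members. With ETO2-GLIS2 it was 2.71 and 3.02, against 4.38 and 2.19, so that the relatives had the higher median at 48 h. The family pairs differed in places. GFI1 had 14 AML1-ETO peaks at 48 h, or 26.0 per 100 kb, where GFI1B had 1.14 per 100 kb. BCL11A had 23.6 per 100 kb, where BCL11B had 0.700. PBX2 had 35.2 per 100 kb, against 1.92 at PBX3. The PBX2 window of 45.5 kb is mostly flank around a gene of 5.47 kb, and that of PBX3 spans 260 kb. At PBX2 the only AML1-ETO promoter summit at 48 h ranked at 38.3%, against 3.49% for the best at PBX3. MECOM at 0.161 per 100 kb lay below its relative PRDM16 at 6.11.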

How the data were processed

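Chromatin of U937 cells with an HA-tagged fusion protein was precipitated with anti-HA beads in 4 ChIP libraries, each with an input. Groups came from the sample titles, since the treatment protocol names 48 h also for the libraries titled 12 h. According to the study and the submitters' processing notes, the authors aligned reads to hg19 with Bowtie2 2.2.9, handled them with SAMtools 1.7 and called peaks per library with MACS2 2.1.1.20160309. deepTools is also named. The MACS2 settings and any filter on reads are not given in the sources used here.

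The deposited lists give the peak interval and summit, the fold enrichment as a linear ratio over the local background, the −log10 of the p-value and q-value, and a score, which is the whole part of 10 times that −log10 q. The smallest −log10 q was 1.30. These values grow with depth, which the lists do not give, so peaks were ranked by −log10 q within a list, ties sharing the mean rank. Duplicate positions were not present.

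Members and lists were chosen with earlier results of these data known. All 9 genes were named, with the strongest peak and the promoter summits of each. A relative in the gene-family comparison is not reported here and was left out of its counts. Intronic sites beyond these, 5 of the 13 windows, the distances between start peaks and the ranges of their ranks were chosen after their values had been seen. Gene models came from GENCODE (release 44, lifted to GRCh37) and bases from the GRCh37 assembly. A promoter summit lay within 1 kb of a start site of any transcript of the gene. Exon and intron numbers refer to the canonical transcript. Peaks overlapped from 1 bp. Shares have exact 95% Clopper-Pearson intervals (scipy 1.17.1), which cover counting error only and take peaks as independent. With 1 library per condition no test was made. Alternatives were other thresholds on q, list lengths, overlap rules, joining of peaks, window sizes and promoter definitions. Overlap and motif counts were checked on simulated peaks and overlap against bedtools 2.31.1. Python 3.11.15, pandas 2.3.3 and numpy 2.4.6 were used.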

Additional observations from a re-analysis of the deposited data

Results flagged for a closer look

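At 3 genes the number of peaks changed from 12 to 48 h in opposite directions with the fusion proteins. At ETV6 it rose by 6 with AML1-ETO and fell by 2 with ETO2-GLIS2, a difference of 8. At HHEX it rose by 4 and fell by 1, a difference of 5, and at GFI1 it rose by 1 and fell by 2, a difference of 3. Each number comes from 1 library per time, and the difference was not tested. The share of all protein-coding genes with such opposite changes was not computed. The AML1-ETO list itself was longer at 48 h (105769 against 70833 peaks), and so was that of ETO2-GLIS2 (30096 against 28325).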

How the results depend on the processing

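Of the 136 values recomputed under an alternative, 91 moved by less than their counting interval or 1.5 times and 45 moved by more. Values are given in the order AML1-ETO at 12 and 48 h, ETO2-GLIS2 at 12 and 48 h. With a −log10 q of at least 5 the members had 54, 61, 25 and 29 peaks. Of these, ETO2-GLIS2 shared 92.0% and 96.6% with AML1-ETO (whole lists 83.7% and 92.1%). Of the AML1-ETO peaks at 48 h, 59.0% recurred at 12 h (whole list 54.9%). With at least 10 the members had 33, 34, 14 and 14 peaks. The share that overlapped the other fusion protein was 35.3% for AML1-ETO at 48 h (whole list 35.7%). For ETO2-GLIS2 it was 92.9% and 100% (whole lists 80.4% and 93.4%). At the other time 97.0%, 76.5%, 92.9% and 85.7% recurred (whole lists 93.4%, 64.9%, 81.7% and 80.4%). With the strongest 28325 peaks of each list AML1-ETO had 47 and 38 member peaks and shared 51.1% and 55.3% (whole lists 53.4% and 52.8%). Of those at 48 h, 76.3% recurred (whole list 72.4%). With peaks within 1 kb joined there were 50, 62, 35 and 33. With an overlap of at least 50% of the peak AML1-ETO shared 16.9% and 3.88%, and 21.7%, 35.7% and 39.0% recurred for AML1-ETO at 48 h and ETO2-GLIS2 at 12 and 48 h (whole lists 19.1%, 51.8% and 42.7%). With summits within 200 bp 14.6%, 7.75%, 23.2% and 16.9% were shared (whole lists 16.6%, 11.1%, 41.6% and 39.0%) and 43.8%, 30.2%, 39.3% and 35.6% recurred (whole lists 39.3%, 26.3%, 46.8% and 44.0%). In windows of 100 bp Runt fell to 15.5% with AML1-ETO at 48 h and CAGCTG to 4.49% and 9.30%, and CCGGAAGT was at 0% with ETO2-GLIS2 at 12 h in these windows and with a −log10 q of at least 5. The gene counts with promoter summits and the median ranks stayed within those limits in the alternatives run. With the 5′ end as the only start site the gene counts were 5, 5, 6 and 6, against 7 in each list. No paired analysis was possible because each condition had 1 library. The order of the lists by number of member peaks turned round at equal list length, and what sets the length of a list was not tested. A wide peak counts once in these numbers, and the length covered was not computed at equal list length.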
